A study of Mus musculus with 18 samples.

Results

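The genes that carry antigens to the cell surface were followed here in 3 sorted epithelial cell populations of the mouse mammary gland. The set was formed from all genes whose symbol starts with H2-, the mouse prefix of the major histocompatibility complex (MHC), together with B2m, Tap1, Tap2, Tapbp, Psmb8, Psmb9, Psmb10, Nlrc5, Ciita and Cd74. It held 54 genes of the 46257 gene IDs in the deposited table. By role, 31 were class I chains, 3 load class I molecules with peptide, 3 are subunits of the immunoproteasome, 11 belong to class II, 2 are regulators, and 4 other H2- symbols (H2-Bl, H2-Ke6, H2-Pa and H2-Pb) were put in none of these. H2-Ke6 is a steroid dehydrogenase encoded inside the MHC, and GENCODE lists the other 3 as pseudogenes, H2-Bl as a polymorphic one. In GENCODE release M21 of the GRCm38 build 49 of the 54 lay on chromosome 17, between positions 33915899 and 37483552.

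ER+ luminal, ER- luminal and basal cells were sorted at puberty, in adults and at mid pregnancy, which gave 9 groups of 2 RNA-seq libraries, 18 in all. All mice had the genotype ERrtTA/TetOCre/rosaYFP, in which an rtTA activator, a Cre recombinase under Tet control and a YFP reporter are combined, so that every group shared these alleles. The labels name no age in days, strain, MHC haplotype or doxycycline dose and no number of mice per library, and p-values therefore measure the spread between these libraries only. For basal samples of puberty and pregnancy the titles, which set the groups, name BC, but the cell type field adds the word luminal. Summed values of basal markers were 137556 to 296896 in the 6 basal libraries and 846 to 36672 in the 12 luminal ones, and ER- luminal markers summed to 33208 to 74395 in ER- against 1531 to 28428 in the other libraries. ER+ luminal markers summed to 37462 to 221060 in the ER+ libraries and 4090 to 45494 in the others, an overlap that lay in the library labelled pregnancy ER+ replicate 2, which had 37462.

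Values are whole numbers on a common scale of about 20000000 per library, and 1 read was worth 1.754 to 8.247 units. The libraries held 2406221 to 11292227 reads in genes, the fewest in adult ER+ luminal replicate 2. The adult luminal libraries were the shallowest, with 1 read worth at least 6.27 units, so a value under about 20 there rests on very few reads. A gene was tested when it reached 10 units in at least 2 libraries, which 22315 genes and 41 of the 54 members did. Folds are on the scale log2(value + 1), and calls are limma tests with Benjamini-Hochberg adjusted p under 0.05 over all tested genes. In bulk RNA from sorted cells, fewer cells of a type and less RNA per cell cannot be told apart.

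Class I molecules, a heavy chain paired with B2m, display peptides made in the cytosol on nearly all nucleated cells. The immunoproteasome cuts these peptides, the transporter Tap1 and Tap2 moves them into the endoplasmic reticulum and tapasin (Tapbp) holds the empty molecule there for loading. Class II molecules display peptides from the endosome, are accompanied by the invariant chain Cd74, and are typical of dendritic cells, macrophages and B cells, although mammary epithelium can make them as well. Nlrc5 and Ciita are the master regulators of class I and class II transcription, and both work through a promoter module of X and Y boxes.

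Promoters of members on which the results below turn are shown to let their elements be compared. Each window runs from 250 bases before to 50 after the gene start in the RefSeq table of build GRCm38.p6, in which 37 of the 54 members had an entry. Capitals mark matches, on either strand, to CCAAT (the Y box core), AGCAAC (an X1 box core), TGATGC (an X2-like element), GGGGATTCC (a kappa B site) or the core of the interferon regulatory factor (IRF) element, which is a pair of GAAA runs with a gap of 2 bases. No matches overlapped one another in these 6 windows. The first 3 windows belong to class I genes, the 2 after them to class II genes, and the last to an immunoproteasome gene.
H2-K1: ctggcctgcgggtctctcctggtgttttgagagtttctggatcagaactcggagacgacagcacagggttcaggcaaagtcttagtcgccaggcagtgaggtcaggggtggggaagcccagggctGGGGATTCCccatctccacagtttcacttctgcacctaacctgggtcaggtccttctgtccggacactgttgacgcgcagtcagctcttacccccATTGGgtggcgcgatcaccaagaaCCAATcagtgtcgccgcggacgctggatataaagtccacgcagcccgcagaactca
B2m: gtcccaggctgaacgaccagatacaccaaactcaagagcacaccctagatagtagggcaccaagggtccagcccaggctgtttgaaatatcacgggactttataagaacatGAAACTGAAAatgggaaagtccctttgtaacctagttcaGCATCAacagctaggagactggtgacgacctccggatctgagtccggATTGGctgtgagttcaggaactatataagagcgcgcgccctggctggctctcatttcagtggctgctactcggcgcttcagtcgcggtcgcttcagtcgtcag
H2-T23: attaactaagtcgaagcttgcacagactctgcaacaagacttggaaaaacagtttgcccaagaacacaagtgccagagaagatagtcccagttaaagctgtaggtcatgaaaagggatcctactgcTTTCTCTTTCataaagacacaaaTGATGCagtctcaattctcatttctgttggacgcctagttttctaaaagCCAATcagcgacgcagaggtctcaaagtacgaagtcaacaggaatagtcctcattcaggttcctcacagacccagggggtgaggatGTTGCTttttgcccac
H2-Aa: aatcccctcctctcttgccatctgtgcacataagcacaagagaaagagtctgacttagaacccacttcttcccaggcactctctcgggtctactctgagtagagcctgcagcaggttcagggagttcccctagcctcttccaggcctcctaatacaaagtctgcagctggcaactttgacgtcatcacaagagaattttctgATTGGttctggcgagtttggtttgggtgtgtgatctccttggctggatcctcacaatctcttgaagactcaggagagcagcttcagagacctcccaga
H2-Eb1: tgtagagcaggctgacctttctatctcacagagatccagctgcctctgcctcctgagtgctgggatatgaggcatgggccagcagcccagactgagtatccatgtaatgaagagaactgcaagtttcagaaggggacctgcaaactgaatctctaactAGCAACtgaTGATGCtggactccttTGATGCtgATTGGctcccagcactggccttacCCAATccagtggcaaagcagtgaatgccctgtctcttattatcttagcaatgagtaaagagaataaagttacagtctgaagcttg
Psmb9: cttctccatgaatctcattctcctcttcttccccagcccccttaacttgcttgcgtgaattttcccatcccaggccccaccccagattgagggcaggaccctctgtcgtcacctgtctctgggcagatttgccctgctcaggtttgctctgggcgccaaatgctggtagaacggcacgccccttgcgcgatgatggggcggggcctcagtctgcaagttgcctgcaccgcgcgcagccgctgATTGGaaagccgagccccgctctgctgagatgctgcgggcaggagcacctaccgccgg

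The H2-K1 window (chr17:34000284-34000583, minus strand) held the kappa B site and 2 CCAAT matches, and the B2m window (chr2:122147437-122147736, plus strand) held 1 CCAAT, 1 TGATGC and 1 IRF element. The H2-T23 window (chr17:36032652-36032951, minus strand) held 1 of each element except the kappa B site. In the H2-Eb1 window (chr17:34305617-34305916, plus strand) AGCAAC and 2 TGATGC matches stood before 2 CCAAT matches, the order of an X and Y module, while the H2-Aa window (chr17:34287774-34288073, minus strand) matched CCAAT alone. The Psmb9 window (chr17:34187281-34187580, minus strand) shared 275 bases with that of Tap1, which is read from the opposite strand. Over the 40 entries of the members, 85.0% held CCAAT, against 37.4% of all 32851 promoters of this length. TGATGC was found in 45.0% of the members' entries and 10.9% of all, AGCAAC in 15.0% and 14.8%, the IRF element in 7.5% and 3.44%, and the kappa B site in 12.5% and 0.25%. Many members are copies of one another with like promoters, so these shares are not made of independent sequences, and a match is a description of letters only.

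Per length, the classical class I genes were more abundant than the class II genes. Per kilobase of exon, the mean over 18 libraries was 28959.4 units for B2m, 5325.5 for H2-D1 and 4604.7 for H2-K1, the classical class I heavy chains. The class II gene with the highest level per kilobase was Cd74 at 1175.2, and the class II alpha chain gene H2-Aa reached 266.9. Among the nonclassical genes H2-Q4 stood at 936.3, H2-Q6 at 759.6 and H2-T23, which encodes the Qa-1 molecule recognised by natural killer cell receptors, at 753.5 per kilobase. Of the 13 members that were not tested, 10 were class I genes of the H2-M group, and 5 members (H2-M10.3, H2-M10.4, H2-M10.5, H2-M10.5-ps1 and H2-M6-ps) were at 0 in all 18 libraries.

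**Figure D1:**
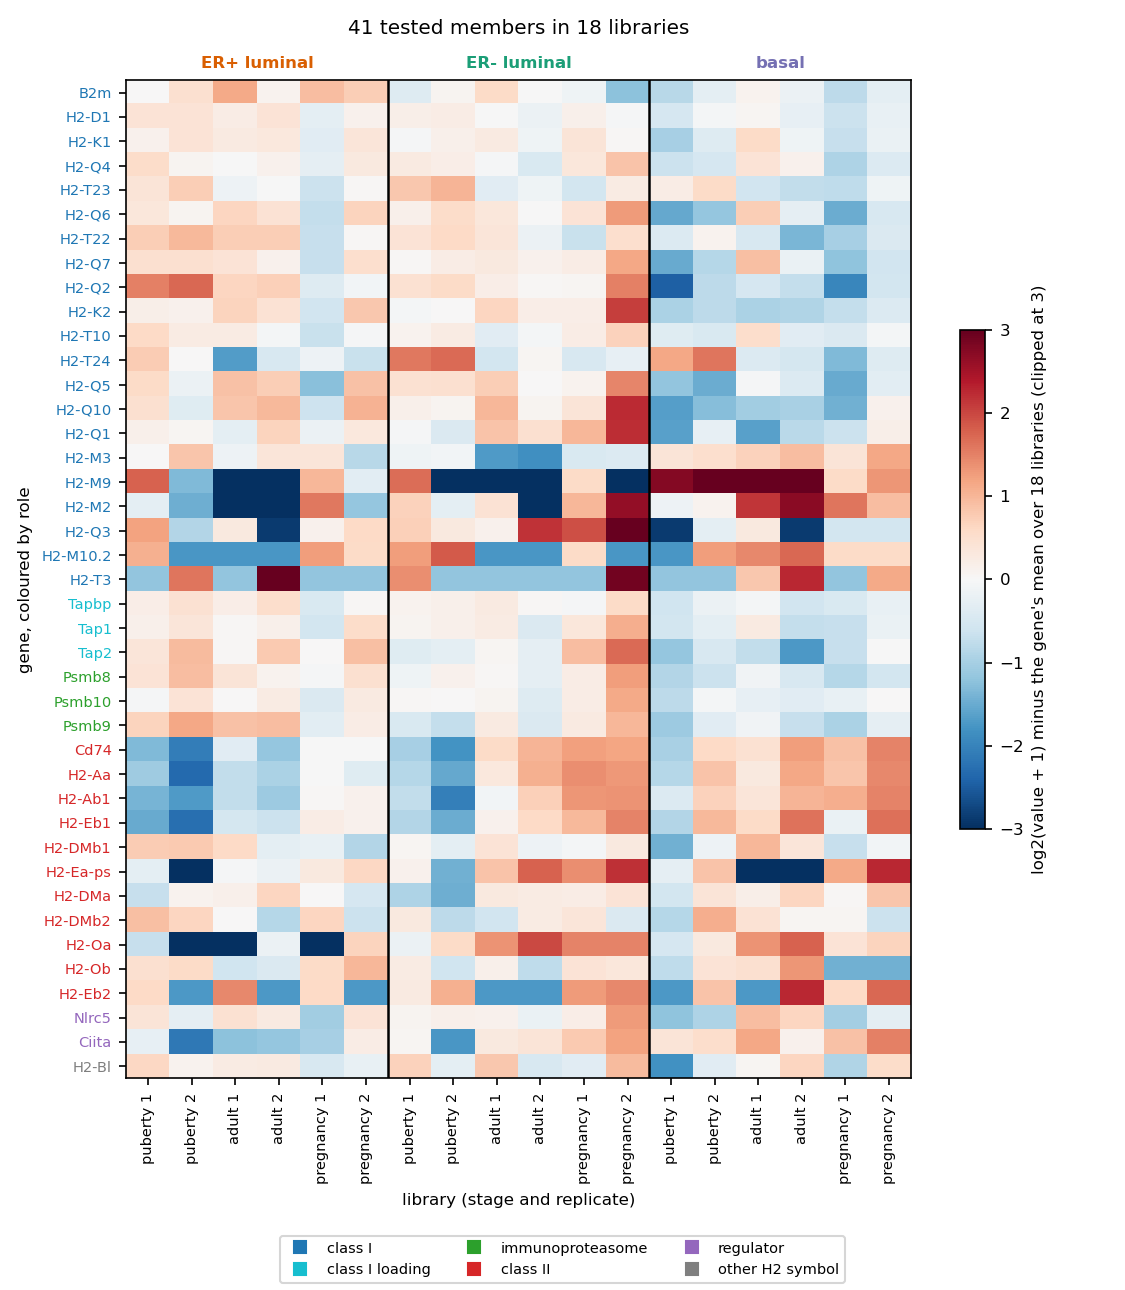
Heat map of the 41 tested members (rows, coloured by role) in 18 libraries (columns, by population, stage and replicate); colour is log2(value + 1) minus the gene's own mean over the libraries, clipped at 3. Most class I, loading and immunoproteasome rows are blue in the puberty and pregnancy basal columns. In adult basal replicate 1 several class I rows, among them H2-K1, H2-Q4, H2-Q6 and H2-Q7, lie above their mean. The 4 rows from Cd74 to H2-Eb1 are blue in the puberty and adult ER+ and the puberty ER- columns. Pregnancy ER- replicate 2 is red in many class I rows.

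Basal cells carried less message of most class I genes, and more of the core class II genes, than the mean of the luminal populations. Over the 3 stages, basal cells were set against the equally weighted mean of the ER+ and ER- luminal groups, not against each alone. Lower in basal cells were 18 of the 41 tested members, or 43.9%, beside 21.5% of all tested genes. Higher in basal cells were 8 members, or 19.5%, beside 20.9% of all genes. The median log2 change was -0.41 over the members and -0.03 over all tested genes. By role, 13 of 21 class I genes fell and 3 rose, all 3 loading genes fell, 2 of 3 immunoproteasome genes fell, and 4 of 11 class II genes rose with none falling. Without the 6 adult libraries 18 members fell and 2 rose, and without the 6 pregnancy libraries 14 fell and 7 rose. Scaling by median-ratio size factors moved the median of all genes to 0.07 and gave 14 lower and 8 higher members. Markers of other cell types moved with this comparison. Higher in basal cells were 5 of 5 endothelial markers (median log2 change 2.14), with summed values of 7910 and 10311 in adult basal against 236 to 493 in adult luminal libraries. So were 3 of 5 fibroblast markers (median 1.37), 2 of 5 tested T and natural killer cell markers (median 1.18) and 4 of 14 macrophage and dendritic cell markers (median 0.78). Of 5 B cell markers 0 were called. The part of these cells in the result was not tested.

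H2-Q2, a nonclassical class I gene, had the firmest drop. In basal cells its values were 33 and 107 at puberty, 131 and 113 in adults and 47 and 126 in pregnancy. ER+ luminal cells had 525 and 611, 287 and 306, and 141 and 175 at the same stages, and ER- luminal cells had 253 and 276, 212 and 188, and 192 and 526. All 6 basal libraries lay below all 12 luminal ones. The log2 change was -1.73 (SE 0.27, limma adjusted p = 0.000105), 3.32-fold lower on the tested scale.

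The classical heavy chains fell by less. H2-K1 values in basal cells were 6536 and 9986 at puberty, 19350 and 12014 in adults and 8108 and 11325 in pregnancy, against 10234 to 17470 in the ER+ and 11960 to 17044 in the ER- luminal libraries. Both puberty basal libraries lay below the 4 puberty luminal ones, whereas adult basal replicate 1 was the highest of all 18. The H2-K1 change was -0.46 (SE 0.15, limma adjusted p = 0.0221), and the call was lost with median-ratio scaling, in edgeR, without puberty basal replicate 1, adult basal replicate 2 or pregnancy basal replicate 1, and without the pregnancy libraries (highest adjusted p = 0.0989). H2-D1, at 8546 to 14040 in basal and 11026 to 17967 in luminal libraries, changed by -0.40 (SE 0.09, limma adjusted p = 0.00213) and kept its call in every alternative run.

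Other members of the H2-Q and H2-K group followed, all of them sharing long stretches of sequence, so that reads may have been divided among copies in a way that the deposited counting fixes. H2-Q10 changed by -1.56, H2-Q5 by -1.23, H2-Q1 by -1.20, H2-K2 by -1.18, H2-Q6 by -1.04 and H2-Q7 by -0.85, and each kept its call in every alternative run. H2-Q4 changed by -0.49 and lost its call without the pregnancy libraries (adjusted p = 0.133), and H2-Q3, annotated as a pseudogene and at most 61 in any library, changed by -1.71 (limma adjusted p = 0.0493) and kept its call in 7 of 25 alternatives. H2-Q6 and H2-Q7, the genes of the Qa-2 antigen, were not low in every basal library: H2-Q6 had 485 and 625 at puberty and 498 and 1004 in pregnancy, but 2347 and 1168 in adults, inside the luminal range of 846 to 3365. B2m had 12831 and 18641, 24582 and 20199, and 13318 and 18610 in basal cells at puberty, in adults and in pregnancy. Its change of -0.57 (limma adjusted p = 0.0476) was called in only 6 of 25 alternatives. H2-T22, a nonclassical class I gene, changed by -0.89. It was called in 24 of 25 alternatives and lost the call without the adult libraries (limma adjusted p = 0.0564).

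The loading and cutting machinery showed the same direction. Tap2 values in basal cells were 404 and 642 at puberty, 538 and 272 in adults and 554 and 895 in pregnancy, where the luminal libraries ran from 703 to 2895. Pregnancy basal replicate 2 alone reached the luminal range. The Tap2 change was -1.20 (SE 0.21, limma adjusted p = 0.000545). Tapbp changed by -0.53 (SE 0.12, limma adjusted p = 0.00197) and Tap1 by -0.54 (SE 0.20, limma adjusted p = 0.0398), the last called in 10 of 25 alternatives. Psmb8, a catalytic subunit of the immunoproteasome, had 337 to 583 in basal and 520 to 1491 in luminal libraries, a change of -0.88 (SE 0.15, limma adjusted p = 0.000263). Psmb9 changed by -0.86 (SE 0.18, limma adjusted p = 0.00126), and Psmb10, with a value of -0.41 (SE 0.17, limma adjusted p = 0.0598), did not pass. Nlrc5, the class I regulator, had a value of -0.47 (SE 0.22, limma adjusted p = 0.112).

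**Figure D2:**
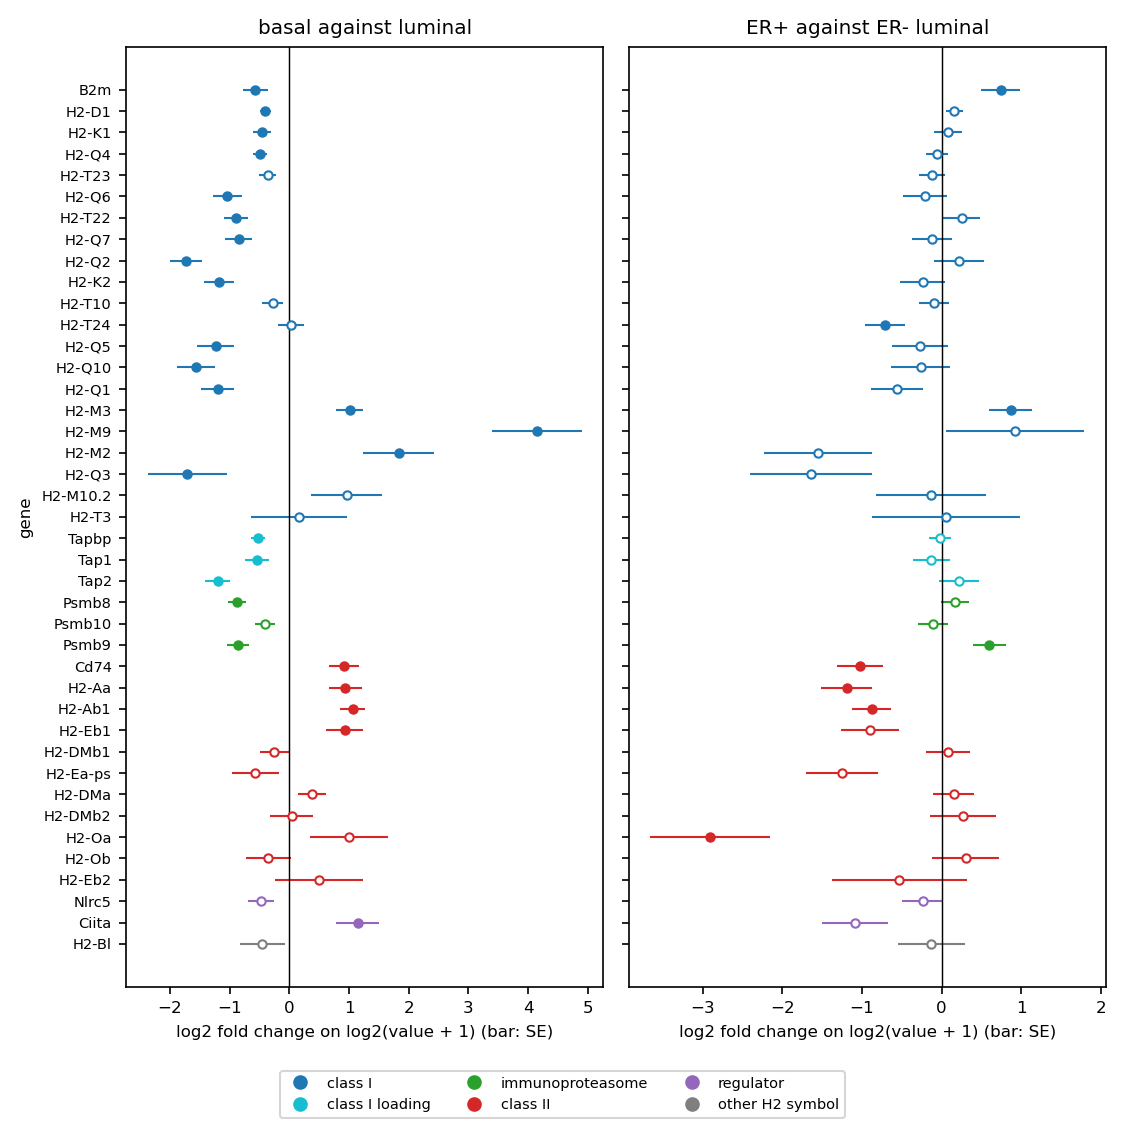
Log2 fold change of each tested member with its SE (bars), for basal against luminal cells (left) and ER+ against ER- luminal cells (right); filled points passed the limma test at an adjusted p under 0.05 and open points did not. On the left the class I, loading and immunoproteasome points lie mainly below 0 and the first 4 class II points near 0.92 to 1.06; on the right 3 of those 4 are filled and below 0.

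Class II genes ran the other way. Cd74, the invariant chain, had 779 and 2330 in puberty basal cells, 2116 and 3633 in adult and 2796 and 4282 in pregnancy basal cells. Cd74 ranged from 363 to 1513 in the ER+ and from 441 to 3614 in the ER- luminal libraries, so the groups overlapped. The sum of Cd74, H2-Aa, H2-Ab1 and H2-Eb1 had a median of 4858 in basal, 4656.5 in ER- and 1678.5 in ER+ libraries. Basal cells thus lay near ER- cells, although at puberty their sums of 1556 and 4636 exceeded 848 and 1499 in ER- cells. Basal cells were not tested against ER- cells alone. The Cd74 change was 0.92 (SE 0.25, limma adjusted p = 0.0119), 1.90-fold higher. H2-Ab1, the beta chain of the I-A molecule, rose by 1.06 (SE 0.21, limma adjusted p = 0.000933), its partner H2-Aa by 0.94 (SE 0.28, limma adjusted p = 0.0181) and the I-E beta chain H2-Eb1 by 0.93 (SE 0.31, limma adjusted p = 0.0252). Ciita, the class II regulator, rose by 1.15 (SE 0.36, limma adjusted p = 0.0166) with values of only 43 to 113 in basal libraries. Cd74 and H2-Ab1 kept their calls in every alternative. The calls of H2-Aa, H2-Eb1 and Ciita were lost without the adult libraries or without pregnancy basal replicate 2, those of H2-Aa and H2-Eb1 also without adult basal replicate 2, that of H2-Eb1 without puberty basal replicate 2, and that of Ciita without adult basal replicate 1 or the pregnancy libraries (highest adjusted p 0.0653, 0.172 and 0.0611).

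H2-M3, which presents N-formylated peptides, was higher in basal cells by 1.01 (SE 0.23, limma adjusted p = 0.00226), at 92 to 159 against 19 to 127 in luminal libraries. H2-M9, a nonclassical class I gene, had 67 and 157 in puberty, 109 and 230 in adult and 14 and 24 in pregnancy basal cells. Luminal cells had at most 33, and all 4 adult luminal libraries were at 0. Replicate 1 of puberty ER+ and ER- cells had 33 and 31, with endothelial marker sums of 7037 and 6731. Replicate 2 of these groups had 3 and 0, with sums of 615 and 1621, and the adult luminal sums were 236 to 493. Pregnancy ER- replicate 2, however, had 0 with a sum of 3694. The part of endothelial cells in the H2-M9 result was not tested. The H2-M9 change was 4.15 (SE 0.75, limma adjusted p = 0.000372). With the adult groups at 0 set to the value of 3 reads over a group, it was 2.96. H2-M9 and H2-M3 lost their calls without the adult libraries (adjusted p 0.0979 and 0.0718). H2-M2 was also called higher, with 1.83 (1.22 with the adult ER+ group at the value of 3 reads), and lost its call without puberty basal replicate 2, adult basal replicate 2, pregnancy basal replicate 1 or the adult libraries (highest adjusted p = 0.731).

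Between the luminal populations 4 of the 11 class II genes, Cd74, H2-Aa, H2-Ab1 and H2-Oa, were lower in ER+ cells, and the other 7 did not pass. Called higher in ER+ than in ER- cells were 3 members (7.32%, beside 10.3% of all genes) and lower were 5 (12.2%, beside 15.2%), shares no larger than those of all genes. Cd74 had 612 and 363 in puberty ER+ cells, 1218 and 685 in adults and 1513 and 1508 in pregnancy. ER- cells had 769 and 441, 2291 and 3083, and 3614 and 3485. The 2 populations overlapped at puberty and were apart in adults and in pregnancy. The change was -1.03 (SE 0.29, limma adjusted p = 0.0235), a 2.04-fold lower level in ER+ cells, called in 11 of 19 alternatives.

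H2-Aa was lower in ER+ cells by -1.19 (SE 0.32, limma adjusted p = 0.0178) and H2-Ab1 by -0.88 (SE 0.25, limma adjusted p = 0.016). Each was called in 15 of 19 alternatives. Both calls were lost without the adult or the pregnancy libraries, and without puberty ER- replicate 1 or adult ER- replicate 2. H2-Eb1 had a value of -0.90 (SE 0.36, limma adjusted p = 0.0806) and Ciita of -1.09 (SE 0.41, limma adjusted p = 0.0643), neither of which passed. H2-Oa, a chain of the H2-O molecule that restrains class II peptide loading, had 0 to 17 in ER+ and 9 to 44 in ER- libraries. Its change of -2.91 (SE 0.75, limma adjusted p = 0.00939) rests on a few reads per library. The H2-Oa call was lost without the adult libraries (limma adjusted p = 0.0677). H2-T24, a nonclassical class I gene, had a lower level in ER+ cells (-0.71, SE 0.25, limma adjusted p = 0.0464), called in 6 of 19 alternatives.

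Class I genes gave no common direction between the luminal populations. H2-K1 and H2-D1 had values of 0.08 (SE 0.17) and 0.16 (SE 0.11), with limma adjusted p of 0.776 and 0.285. B2m had 23050 and 32142 in puberty ER+, 50043 and 24470 in adult ER+ and 43147 and 37851 in pregnancy ER+ cells. ER- cells had 17612 and 24199, 34245 and 22773, and 20856 and 9722, which left a gap between the populations in pregnancy only. B2m was higher in ER+ cells by 0.74 (SE 0.24, limma adjusted p = 0.0441), Psmb9 by 0.60 (SE 0.21, limma adjusted p = 0.0462) and H2-M3 by 0.87 (SE 0.27, limma adjusted p = 0.0258), called in 8, 9 and 13 of 19 alternatives. The number of members called, 8, was 1 without puberty ER- replicate 1, 3 without puberty ER+ replicate 2 or adult ER- replicate 2, 4 without pregnancy ER+ replicate 1, and 5 without adult ER+ replicate 1, adult ER+ replicate 2, pregnancy ER+ replicate 2 or the 6 pregnancy libraries. Without the 6 adult libraries it was 1.

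The proportions of the core class II genes within a library varied less than their levels. H2-Aa amounted to 38.3% to 61.3% of the Cd74 value, H2-Ab1 to 30.9% to 68.6% of H2-Aa and H2-Eb1 to 9.69% to 28.3% of H2-Aa, while the sum of the 4 genes ran from 658 in puberty ER+ replicate 2 to 7897 in pregnancy basal replicate 2. By Pearson correlation over the 18 libraries with the mean standardised profile of the 4, which all libraries' population and stage differences share, Ciita stood at 0.814, H2-DMa (a chain of the peptide editor H2-DM) at 0.647, H2-Oa at 0.592, Nlrc5 at 0.091 and H2-K1 at -0.19. Outside the set, the closest of all tested genes were Il10 at 0.922, Lyz2 at 0.899, Cd180 at 0.895, Mmp9 at 0.893, Laptm5 at 0.889, Cybb at 0.886, Adgre1 at 0.884 and Cyth4 at 0.878, which are known from macrophages and other white blood cells.

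The summed markers of macrophages and dendritic cells varied with the class II genes across libraries, but not every marker did. The 14 markers were Ptprc, Csf1r, Adgre1, Cd68, Itgam, Itgax, Lyz2, Fcgr1, C1qa, C1qb, Mrc1, Flt3, Xcr1 and Ccr7, and all were tested. Mrc1, Lyz2 and Csf1r reached the highest values, up to 3537, 2371 and 1616. Ccr7 was highest in replicate 1 of puberty ER+ and ER- cells (130 and 134) and at 0 in the adult luminal libraries. Flt3 and Xcr1 were at most 19 and 23. In basal against luminal cells 4 of the 14 rose and 0 fell, beside 20.9% of all genes higher. In ER+ against ER- cells 0 rose and 6 fell, beside 15.2% of all genes lower. In pregnancy against puberty 6 rose in ER- cells and 1 in ER+ cells with none falling, beside 8.78% and 7.34% of all genes higher. Their summed value was 888 to 2573 in ER+, 1392 to 8577 in ER- and 1227 to 10498 in basal libraries. The class II sum stood at 0.61 to 2.61 times the marker sum, with the highest ratios, 1.80 and 2.61, in the adult basal libraries. The replicates of puberty basal cells differed alike in both: marker sums of 1227 and 6296 went with Cd74 values of 779 and 2330. B cell markers summed to 0 to 160. The part of these cells in the class II results was not tested.

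**Figure D3:**
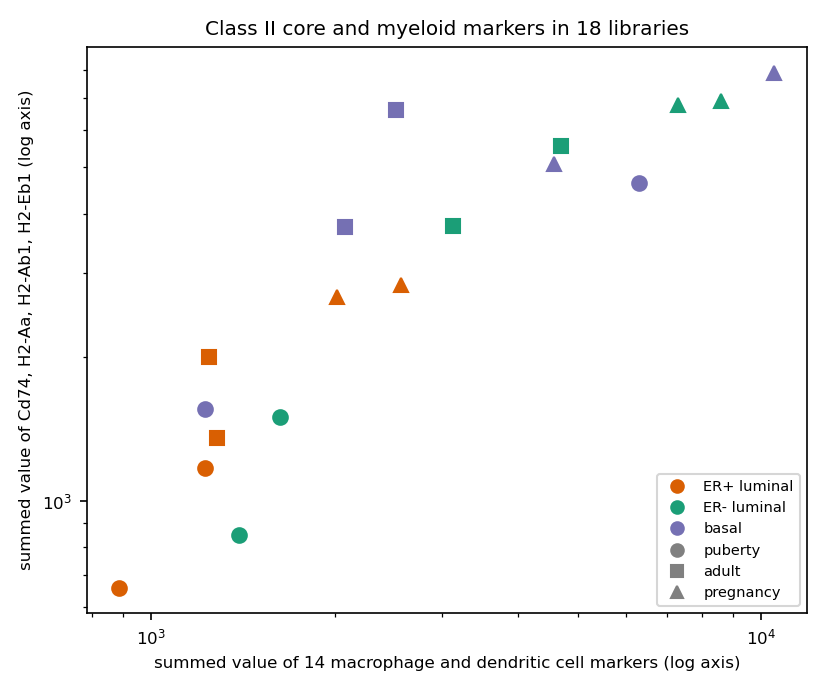
Summed value of Cd74, H2-Aa, H2-Ab1 and H2-Eb1 against the summed value of 14 macrophage and dendritic cell markers in each of 18 libraries, on log axes; colour gives the population and shape the stage. Libraries with high marker sums also have high class II sums. The 2 adult basal libraries have the highest class II sums relative to their marker sums (ratios 1.80 and 2.61), not the 2 highest class II sums.

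From puberty to mid pregnancy, 6 of the 11 class II genes rose in ER- luminal cells. Of the 41 tested members 9 rose, beside 8.78% of all genes, and 2 fell, beside 6.04%, with a median log2 change of 0.61 over the members and 0.03 over all genes. Basal markers rose in the same libraries, 3 of 7 of them (median 2.80), from summed values of 13169 and 2992 to 36672 and 33969. Of the 14 macrophage and dendritic cell markers 6 rose (median 1.41), from sums of 1626 and 1392 to 8577 and 7309. The class II sum was 0.92 and 0.61 times that marker sum at puberty and 0.80 and 0.92 times in pregnancy. The part of either marker group in the result was not tested. Cd74 went from 769 and 441 to 3614 and 3485, with adult values of 2291 and 3083 between them. The change from puberty to pregnancy was 2.61 (SE 0.51, limma adjusted p = 0.00671), a 6.09-fold rise. H2-Ab1 went from 210 and 83 to 882 and 887 (log2 change 2.73, SE 0.43, limma adjusted p = 0.000849) and H2-Aa from 435 and 269 to 2076 and 1930 (2.55, SE 0.56, limma adjusted p = 0.0116).

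H2-Eb1 (2.42), H2-Ea-ps (2.45), annotated as an I-E alpha chain pseudogene in the reference, and H2-DMa (1.51) completed the class II genes that rose. Class I presentation genes rose in part: Tap2 went from 703 and 735 to 1696 and 2895 (1.62, SE 0.43, limma adjusted p = 0.023), Psmb9 from 236 and 199 to 394 and 646 (1.22, SE 0.36, limma adjusted p = 0.0347) and H2-Q1 from 66 and 50 to 135 and 316 (1.83, SE 0.57, limma adjusted p = 0.0408). Puberty and pregnancy libraries did not overlap for any of these. The count of 11 members was 1 without puberty ER- replicate 2, 4 without pregnancy ER- replicate 2 and 7, with 5 higher and 2 lower, under median-ratio scaling, which moved the median of all genes to -0.11. H2-Ab1 kept its call in every alternative, and Cd74 lost it without puberty ER- replicate 2. H2-Aa and H2-Eb1 lost theirs without puberty ER- replicate 2 or pregnancy ER- replicate 2. The calls of Tap2, Psmb9 and H2-Q1 were each lost without either puberty ER- library or without pregnancy ER- replicate 2. Median-ratio scaling also removed the calls of Psmb9, H2-Q1, H2-DMa and H2-Ea-ps.

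**Figure D4:**
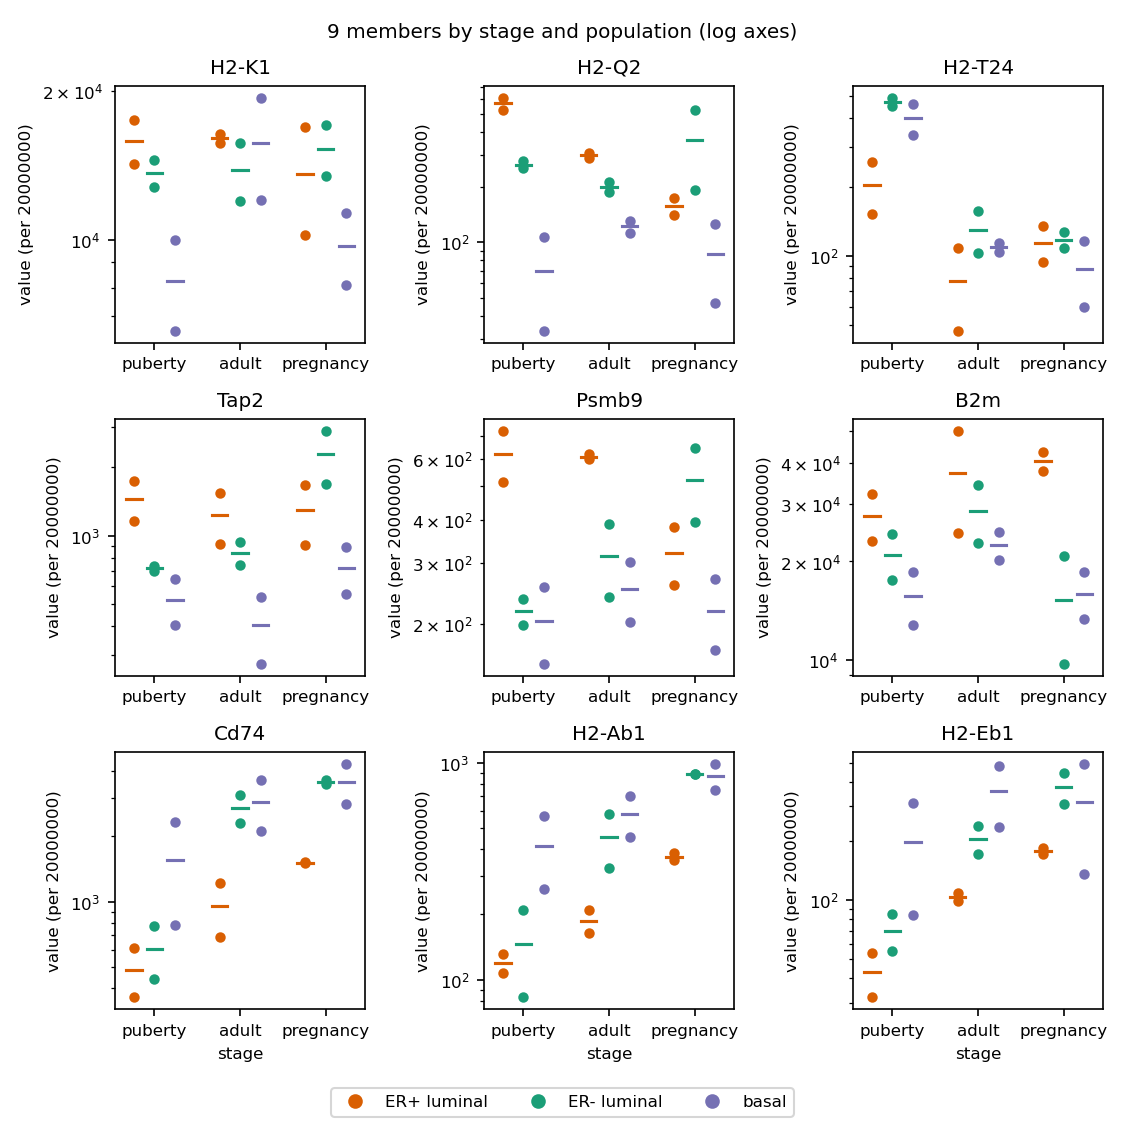
Values of 9 members by stage (horizontal axis) and population (colour) on log axes in units per 20000000; points are single libraries and short lines the means of 2. Cd74, H2-Ab1 and H2-Eb1 climb from puberty to pregnancy in the ER- points, H2-T24 is highest at puberty, and H2-Q2 has all basal points at or below 131.

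Other steps between stages in ER- cells were smaller. From puberty to adulthood Cd74 rose by 2.19 (SE 0.51, limma adjusted p = 0.0374) and H2-Ab1 by 1.71 (SE 0.43, limma adjusted p = 0.0373), the 2 members called higher (4.88%, beside 1.24% of all genes), and 2 were lower (4.88%, beside 2.42%). That count of 4 was 1 without puberty replicate 1 or adult replicate 2 of these cells and 0 without puberty replicate 2 or adult replicate 1. From adulthood to pregnancy H2-Q4 rose by 0.85 (SE 0.24, limma adjusted p = 0.0295) and Tap2 by 1.41 (SE 0.43, limma adjusted p = 0.0429), 4.88% of members beside 8.89% of all genes. That count of 2 was 0 without adult ER- replicate 2 or pregnancy ER- replicate 2, 6 without pregnancy ER- replicate 1, and 1 under median-ratio scaling, in edgeR or with no filter on low values.

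In ER+ cells 2 of the 11 class II genes were higher in pregnancy than at puberty, and 9 did not pass. H2-Ab1 went from 132 and 107 to 356 and 382 (1.63, SE 0.43, limma adjusted p = 0.0195) and H2-Eb1 from 54 and 32 to 184 and 172 (2.07, SE 0.62, limma adjusted p = 0.0404). These 2 members were 4.88%, beside 7.34% of all genes called higher. Cd74 went from 612 and 363 to 1513 and 1508, a value of 1.68 (SE 0.51) that missed the threshold with a limma adjusted p of 0.0508. H2-Q2 fell from 525 and 611 to 141 and 175 (-1.84, SE 0.54, limma adjusted p = 0.0344), the 1 member called lower (2.44%, beside 5.73%). Of 7 basal markers 4 rose in the same step (median 3.16). The calls of H2-Ab1, H2-Eb1 and H2-Q2 were each lost without any 1 of the 4 libraries compared, and that of H2-Eb1 also in edgeR. The count of 3 was 5 under median-ratio scaling and 6 in edgeR, so these counts include other members.

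Adult ER+ cells, with the shallowest libraries, gave few calls. Against puberty 0 of 41 members passed in limma, beside 5.73% of all genes in either direction, with 4 at an unadjusted p under 0.05 and 0 in edgeR. Against adults, 1 member was higher in pregnancy (2.44%, beside 12.8% of all genes). It was H2-M2, with 0 and 0 in adults and 32 and 4 in pregnancy, at least 1.5-fold higher on the means against 3 reads over the adult group. On the log scale the difference against that floor was -0.02, and the call was lost in edgeR, with a pseudocount of 10 and without adult replicate 1, adult replicate 2 or pregnancy replicate 1 (highest adjusted p = 0.301).

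No core class II gene was called between stages in basal cells. From puberty to pregnancy Cd74 had a value of 1.36 (SE 0.51, limma adjusted p = 0.243) and H2-Ab1 of 1.15 (SE 0.43, limma adjusted p = 0.217), with the puberty replicates far apart as given above. The 1 member called was H2-T24, which fell (2.44%, beside 1.4% of all genes). That count was 0 without puberty basal replicate 1 or pregnancy basal replicate 1. From puberty to adulthood 3 members rose (7.32%, beside 5.15% of all genes) and 3 fell (7.32%, beside 4.58%). Nlrc5 rose from 453 and 548 to 1987 and 1618 (1.85, SE 0.44, limma adjusted p = 0.023), with pregnancy values of 514 and 842. In the same step 5 of 6 ER- luminal markers rose, from summed values of 1531 and 3483 to 15886 and 9917, and pan-luminal markers went from 16131 and 37868 to 57455 and 47266, and their part in these changes was not tested. H2-Q7 rose by 1.54 (SE 0.43, limma adjusted p = 0.0411) and H2-Q4 by 0.86 (SE 0.24, limma adjusted p = 0.0353). The count of 6 was 1 without puberty basal replicate 1 or adult basal replicate 2, 2 without adult basal replicate 1 and 3 without puberty basal replicate 2.

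Adult basal cells nearly lacked H2-Ea-ps reads while holding the other class II genes. H2-Ea-ps had 47 and 103 in puberty, 6 and 5 in adult and 126 and 275 in pregnancy basal cells, with no overlap of the adult values. H2-Ea carries a promoter deletion in some MHC haplotypes, which silences it. Since the labels name no haplotype, a difference between the mice cannot be told apart here from one between stages or between populations. This limit holds for the other members in the adult basal libraries as well, and so for the basal against luminal comparison, which includes these libraries. As a share of H2-Aa in the same library, H2-Ea-ps was 0.63% and 0.284% in adult basal cells. In the other 16 libraries it was 3.85% to 14.5%, with 10.5% to 12.3% in the adult luminal ones. It was lower in adults than at puberty (-3.45, SE 0.77, limma adjusted p = 0.0123; lost without puberty basal replicate 2 or adult basal replicate 2, highest adjusted p = 0.0895) and was higher in pregnancy than in adults (4.85, SE 0.77, limma adjusted p = 0.00231), a call kept in every alternative. It was 1 member higher (2.44%, beside 2.92% of all genes), and H2-Q4 the 1 member lower (-0.94, limma adjusted p = 0.0293; 2.44%, beside 4.34%). That count of 2 was 1 without either library of the adult or of the pregnancy basal group.

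**Figure D5:**
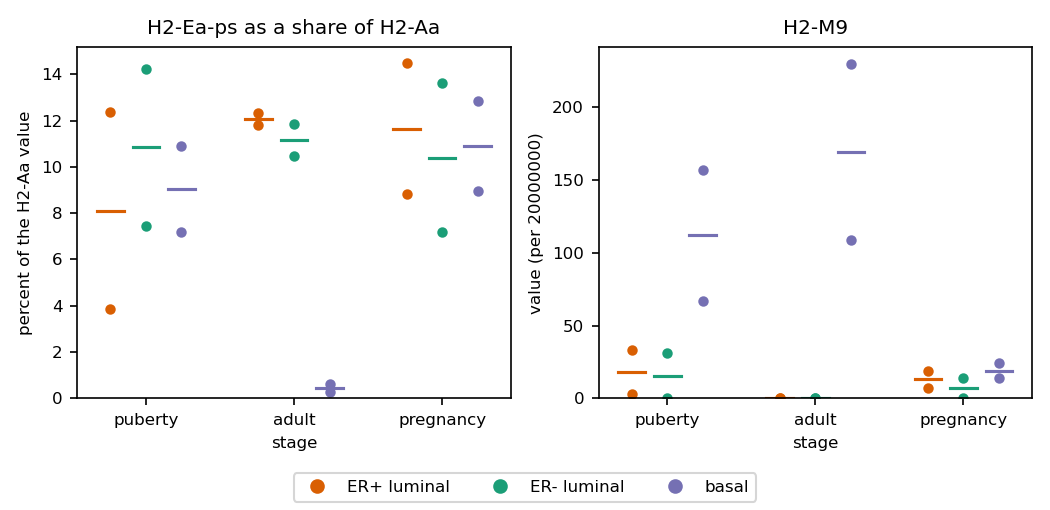
H2-Ea-ps as a percent of the H2-Aa value in the same library (left) and H2-M9 in units per 20000000 (right), by stage and population; points are single libraries and short lines the means of 2. The adult basal libraries are at 0.63% and 0.284% on the left, below all others, and at 109 and 230 on the right.

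H2-T24 and H2-T23, nonclassical class I genes, were highest at puberty. H2-T24 had 455 and 493 in puberty ER- and 339 and 462 in puberty basal cells, against 103 and 157, and 114 and 104, in the adults of these populations and 108 and 128, and 60 and 116, in pregnancy. From puberty to pregnancy it fell by 2.00 in ER- cells (SE 0.43, limma adjusted p = 0.00663) and by 2.23 in basal cells (SE 0.43, limma adjusted p = 0.0137), and from puberty to adulthood by 1.89 (limma adjusted p = 0.0233) and 1.85 (limma adjusted p = 0.0148). In ER+ cells it had 258 and 153 at puberty, 47 and 108 in adults and 135 and 94 in pregnancy. The pregnancy value of -0.81 (SE 0.43, limma adjusted p = 0.256) did not pass. Of 9 alternatives each, the H2-T24 pregnancy call held in 8 in ER- and 6 in basal cells. The adult call held in 6 in either population.

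H2-T23 in ER- cells fell from 3568 and 4131 at puberty to 1602 and 1855 in adults (-1.15, SE 0.28, limma adjusted p = 0.0309) and was 1387 and 2404 in pregnancy (-1.07 against puberty, SE 0.28, limma adjusted p = 0.0177). In basal cells it fell from 2352 and 3036 to 1354 and 1215 in adults (-1.06, SE 0.28, limma adjusted p = 0.0269), and its pregnancy value against puberty was -0.85 (SE 0.28, limma adjusted p = 0.151). In ER+ cells the pregnancy value was -0.86 (SE 0.28, limma adjusted p = 0.0532). These comparisons share the puberty libraries. The H2-T23 calls from puberty to adulthood, in ER- and in basal cells, were each lost without any 1 of the 4 libraries compared. The pregnancy call in ER- cells was lost without puberty replicate 2 or pregnancy replicate 1.

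Whether the change from puberty to pregnancy differed between populations was tested directly. For ER+ against ER- cells 1 member passed (2.44%, beside 0.847% of all genes called lower). Psmb9 went from 513 and 722 to 259 and 382 in ER+ cells and from 236 and 199 to 394 and 646 in ER- cells, a difference of -2.17 (SE 0.51, limma adjusted p = 0.0378). The call was lost without puberty ER+ replicate 2, pregnancy ER+ replicate 1, pregnancy ER- replicate 2 or either puberty ER- library, with the difference between -2.52 and -1.81 over all alternatives. For Cd74 the difference was -0.93 (SE 0.71, limma adjusted p = 0.648) and for Tap2 -1.82 (SE 0.60, limma adjusted p = 0.162). For basal against ER- cells 0 of 41 members passed, beside 0.627% of all genes in either direction, with 2 at an unadjusted p under 0.05 and 0 in edgeR, and the Cd74 difference was -1.25 (SE 0.71, limma adjusted p = 0.542).

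The other genes of the pathway were taken from a list of 42 symbols, 2 of which are newer names of genes also listed under the older one. The 40 genes were all tested and cover the standard proteasome and its activators, chaperones, endosomal proteases, the X and Y box factors, interferon signalling and costimulation. In basal against luminal cells 9 rose and 9 fell, near the 20.9% and 21.5% of all genes, with a median log2 change of -0.08. Psme1 (-0.64) and Psme2 (-0.62), the subunits of the interferon-inducible proteasome activator, fell, as did Rfx5 (-0.63), an X box factor, and Ctsd (-1.04), an endosomal protease. Ctss (1.09) and Ctsl (1.01), proteases that degrade the invariant chain, rose, as did Irf1 (0.94) and Irf8 (1.28), interferon regulatory factors, and Fcgrt (1.03), the neonatal Fc receptor chain that pairs with B2m.

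In ER+ against ER- cells 4 of the 40 rose and 8 fell, beside 10.3% and 15.2% of all genes. Ifngr1, a chain of the interferon gamma receptor, fell by 0.98 (SE 0.13, limma adjusted p = 4.05e-05), Rfxap, an X box factor, by 0.93 (SE 0.15, limma adjusted p = 0.000329), and Ctss by 1.01 (SE 0.30, limma adjusted p = 0.0232), while Mr1, a class I-like molecule that presents vitamin B metabolites, rose by 1.10 (SE 0.16, limma adjusted p = 0.000118). From puberty to pregnancy in ER- cells 8 of the 40 rose and 3 fell, beside 8.78% and 6.04% of all genes. Ctss rose by 1.75, the costimulator Cd86 by 2.26 and Ifi30, a thiol reductase of the endosome, by 0.97, whereas Mr1 fell by 1.51 (SE 0.28, limma adjusted p = 0.00246). The same step gave 4 higher and 6 lower in ER+ cells, beside 7.34% and 5.73%. Ctss, Irf8 and Cd86 are also typical of white blood cells, whose markers moved as given above.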

How the data were processed

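RNA was purified with RNeasy micro kits from sorted cells and made into Ovation Solo libraries, per the labels' protocols. Per the submitters' processing notes the tools were STAR, Picard and HTSeq on GRCm38, without versions, strand use or the treatment of reads that map to several copies. The authors deposited 1 table of signal values, whole numbers that sum to 19841695 to 19897395 per library. From their steps they were taken as counts scaled to 20000000 and rounded up, an inference. Reads recovered by inverting this returned 99.76% to 99.95% of non-zero values exactly, although a stricter test on whole steps was met by 3 libraries and not by 15.

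Repeated rows of 179 gene IDs were reduced to 1 row each, by the highest mean, which left 46257. All 18 libraries in 9 groups were fitted with limma 3.58.1 (trend and robust settings) on log2(value + 1) of 22315 genes with at least 10 units in 2 libraries, leaving 9 residual degrees of freedom, and 13 comparisons were tested, 2-sided. Alternatives were a pseudocount of 10, no filter, median-ratio size factors, a replicate block, edgeR 4.0.16 on recovered reads, each library left out, and, chosen after seeing the data, leaving out the adult or the pregnancy libraries. The test was checked on simulated data. Members, gene lists and comparisons were chosen with earlier results of these data known. Genes named in the text are the members called in a comparison, with the core members of each role, and the closest genes outside the set by correlation with the class II genes.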

Additional observations from a re-analysis of the deposited data

Results flagged for a closer look

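The change of Psmb9 from puberty to pregnancy differed between luminal populations, by -2.17 on the log2 scale for ER+ minus ER- cells (SE 0.51, limma adjusted p = 0.0378). ER+ cells had 513 and 722 at puberty and 259 and 382 in pregnancy, a change of -0.95 that did not pass its own test (limma adjusted p = 0.102), and ER- cells had 236 and 199 and then 394 and 646, where it did. Puberty and pregnancy did not overlap in either population. Over 13 alternatives the highest adjusted p was 0.189. Psmb8, its neighbour in the immunoproteasome, had 830 and 1193 against 605 and 879 in ER+ and 574 and 681 against 727 and 1491 in ER- cells. Markers of the luminal populations changed over the same step. In ER+ cells the ER+ luminal markers went from summed values of 174179 and 221060 to 90253 and 37462. The ER- luminal markers went from 7089 and 4073 to 12339 and 28428 in ER+ cells and from 64065 and 74395 to 33208 and 34494 in ER- cells. The part of these changes in the Psmb9 result was not tested, nor was any other cause.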

How the results depend on the processing

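Of 65 member results named as called, 16 kept the call in every alternative, 49 lost it in at least 1 and 0 reversed, and 848 of 1085 single tests kept it. The numbers of members called moved as follows, and the cause was not tested. With no filter on low values, ER+ against ER- luminal gave 5 in place of 8, adult against puberty in ER+ cells 1 in place of 0, and pregnancy against adult in ER- cells 1 in place of 2. A pseudocount of 10 gave 0 in place of 1 for pregnancy against adult in ER+ and 4 in place of 2 in basal cells. Median-ratio scaling gave 5 in place of 3 for pregnancy against puberty in ER+ and 7 in place of 11 in ER- cells, and for pregnancy against adult 2 in place of 1 in ER+ and 1 in place of 2 in ER- cells. With edgeR, pregnancy against puberty in ER+ cells gave 6 in place of 3, and pregnancy against adult 0 in place of 1 in ER+ and 1 in place of 2 in ER- cells. ER+ against ER- luminal gave 1 without the adult and 5 without the pregnancy libraries.

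Samples with the same replicate number shared only that number: over 36 pairs of groups their deviations correlated by -0.09 to 0.27, with 1 pair above 0.1. The replicate block gave 2 in place of 1 for pregnancy against puberty in basal cells.

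With 1 library left out, the counts ran from 1 to 10 for ER+ against ER- luminal and 19 to 28 for basal against luminal. For pregnancy against puberty they ran from 0 to 2 in ER+, 1 to 10 in ER- and 0 to 1 in basal cells. For pregnancy against adult they were 0 to 3, 0 to 6 and 1 to 1, and for adult against puberty 0 to 1, 0 to 1 and 1 to 3, in the same order. For the differences of effects they were 0 to 2 for ER+ minus ER- cells and 0 to 0 for basal minus ER- cells. With 2 libraries a group, leaving 1 out assumes that the lone library varies like the others. Depth limits genes under about 20 units in adult luminal libraries, H2-M2, H2-M9 and H2-Oa among them.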

Other observations

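Pregnancy ER- luminal replicate 2 held the highest value of all 18 libraries for 16 of the 41 tested members, a count made after seeing the values. They included H2-K2 (827), H2-Q10 (616), H2-Q6 (3365), Tap1 (3335), Tap2 (2895), Psmb8 (1491) and Nlrc5 (2539), genes of class I presentation and its regulator. The same library had the lowest B2m of all, 9722, so that the light chain and the loading genes stood at opposite ends in 1 sample. Its replicate had 223, 172, 1868, 1985, 1696, 727 and 1192 for these genes and 20856 for B2m, and held the highest value of 0 members. Pregnancy basal replicate 2 was highest for 8 members, among them Cd74 and H2-Aa.

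In adult basal cells, Nlrc5 values of 1987 and 1618 exceeded those of 15 of the other 16 libraries, and H2-Ea-ps was nearly absent. H2-T22, a nonclassical class I gene, had 721 and 390 there.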
